A study of Mus musculus with 6 samples.

Results

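The genes described here are 9 mouse Toll-like receptor genes (Tlr1, Tlr2, Tlr3, Tlr4, Tlr6, Tlr7, Tlr8, Tlr9 and Tlr13) and Myd88, the gene of the adaptor that most of these receptors use. They were taken by symbol from a table of 28368 genes, and all 10 were found, each with 1 row. The libraries are polyadenylated RNA from whole mouse tumours, 3 from mice 12 h into MS-DF-MS therapy and 3 from untreated mice. By the series title the therapy is an implanted depot of a pair of drugs, STING agonists followed by inducers of apoptosis, and STING relays the sensing of DNA in the cytosol. The labels give no group with an empty depot, no strain, no age and no tumour type, so effects of the implant and of the drugs cannot be told apart. Pigment cell transcripts were abundant in both groups, with Tyrp1, an enzyme of melanin synthesis, between 7926 and 8943 CPM in every library (CPM are counts scaled to library size). Separate animals are not stated as the source of the libraries, so each p-value reflects only how far these samples vary, and that variation may be technical.

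Toll-like receptors are membrane proteins that recognise conserved microbial molecules, and some of them also bind nucleic acids or proteins released by dying cells. TLR1, TLR2, TLR4 and TLR6 act mainly at the cell surface on lipids and lipoproteins, whereas TLR3, TLR7, TLR8, TLR9 and TLR13 act in endosomes on RNA or DNA. MyD88 carries the signal of all of them except TLR3, which uses the adaptor TRIF (gene Ticam1), and it also serves the receptors of interleukin-1. In tumours these receptors are known mainly from macrophages, dendritic cells and neutrophils, while TLR3 and TLR4 are also made by non-immune cells such as endothelial cells and fibroblasts.

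Libraries held 57017043 to 66634551 counts. Treated 3 stood apart from the other 5 libraries on the first principal component of log2 CPM, at 72.9 against -37.9 to 13.3, so results that turn on it are given with and without it. The summed level of 12 monocyte and macrophage markers was 77.3 CPM in treated 3, against 268.6 in treated 1, 159.6 in treated 2 and 160.2 to 217.6 in the controls. Ptprc, the pan-leukocyte surface phosphatase CD45, followed the same order, with 3.06 CPM in treated 3, 5.61 in treated 2, 10.98 in treated 1 and 7.69 to 9.07 in the controls. In RNA from whole tumours, fewer cells of a type and less RNA per cell cannot be told apart.

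Tlr3 was the 1 member that rose, where 1.36% of all genes tested did. Its promoter and that of Myd88 are shown first because these were the members in which every treated library exceeded every control. This held for 12% of all genes tested. Myd88 was not called by edgeR with all libraries, and its lowest treated value, 12.7 CPM, was just above its highest control, 12.4 CPM. Both sequences are from RefSeq (GRCm38.p6) and run 5′ to 3′ on the minus strand from 250 bases before the RefSeq start, and capitals mark letters that match a searched motif. The Tlr3 sequence is chr8:45410331-45410630 and the Myd88 sequence is chr9:119339969-119340268.
Tlr3: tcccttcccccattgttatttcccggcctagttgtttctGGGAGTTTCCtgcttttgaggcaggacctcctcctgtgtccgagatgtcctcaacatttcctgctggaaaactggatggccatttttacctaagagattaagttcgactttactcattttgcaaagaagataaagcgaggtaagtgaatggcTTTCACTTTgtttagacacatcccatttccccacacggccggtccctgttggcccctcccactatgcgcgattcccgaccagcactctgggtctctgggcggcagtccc
Myd88: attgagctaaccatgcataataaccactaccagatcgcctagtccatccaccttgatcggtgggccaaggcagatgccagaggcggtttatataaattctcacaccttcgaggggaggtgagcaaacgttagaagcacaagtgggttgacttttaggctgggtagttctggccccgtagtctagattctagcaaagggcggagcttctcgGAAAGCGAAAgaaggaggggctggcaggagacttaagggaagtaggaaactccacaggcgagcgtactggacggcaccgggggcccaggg

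In the Myd88 sequence the capitals mark 1 match. GAAAGCGAAA, at -40 to -31 from the start, matches the core of the interferon response element (GAAA, any 2 bases, GAAA), which was found on either strand in 3.44% of 32851 RefSeq promoters of the same length. In the Tlr3 sequence GGGAGTTTCC, at -211 to -202, matches an NF-kB motif (GGGA, any 2 bases, TTCC) found in 1.47% of promoters. The second stretch of capitals, TTTCACTTT at -59 to -51, matches a shortened interferon response element, AAANNGAAA, read on the strand opposite to the one printed. This motif was added to the search after the letters had been seen and occurs in 10.6% of promoters. It was also found, again opposite to the gene's strand, in the promoter of Tlr2 (TTTCTCTTT at -191 to -183), a gene that was not called. This shortened motif lies within every match of the longer core, and the Tlr3 sequence held no match of that core. The RefSeq start of Tlr3 lies 700 bases inside the span given for the gene in the deposited table, and that of Myd88 lies 23 bases inside its span.

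RefSeq held a promoter for 8 of the 10 genes, and Tlr4 and Tlr7 had no entry. Of the others, Tlr6 had 2 overlapping matches of the interferon response element core in 1 of its promoter entries, TTTCTCTTTC and TTTCACTTTC, both read on the strand opposite to the gene's. That entry also held a match of the shortened motif that lies within neither, TTTCTGTTT at -104 to -96, and Tlr6 was not called. The start of that entry lies 882 bases inside the span given for Tlr6 in the deposited table. The other Tlr6 entry, whose start is that of the deposited span, held no searched motif. The letters GAGGAAGT, a site of the myeloid factor PU.1 present in 3.2% of promoters, occurred in a Tlr1 promoter and, on the strand opposite to the gene's as ACTTCCTC, in that of Tlr9. A match is a description of letters and does not show that a factor binds there.

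Per transcript length, 3 of the 10 genes stood well above the rest. Levels of different genes were compared in the deposited FPKM, which are fragments scaled to transcript length and to library size. In control tumours Tlr4 had the highest mean level, at 5.49 ± 1.01 FPKM (SD, n = 3), followed by Tlr3 at 4.09 ± 0.623 and Myd88 at 3.90 ± 0.436. The values of Tlr4 and Tlr3 overlapped, as did those of Tlr3 and Myd88. Tlr2 came next at 0.780 ± 0.221 FPKM, below every control value of Myd88. Below it stood Tlr13 at 0.471 ± 0.225, Tlr1 at 0.348 ± 0.150 and Tlr7 at 0.313 ± 0.0455 FPKM, and last Tlr8 at 0.191 ± 0.0882, Tlr9 at 0.116 ± 0.0249 and Tlr6 at 0.0790 ± 0.0224. From Tlr2 down, each gene's values overlapped those of the next in the order.

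In treated tumours Tlr3 was first, at 12.0 ± 1.501 FPKM (SD, n = 3), with no overlap with the next gene, Myd88, at 6.43 ± 1.82. Tlr4 was next at 5.38 ± 0.788 FPKM and overlapped Myd88. The remaining 7 receptors ran from Tlr2 at 1.28 ± 0.554 to Tlr6 at 0.143 ± 0.118 FPKM, each overlapping the next. Of the summed FPKM of the 9 receptors, Tlr3 made up 27.6, 35.7 and 40.5% in controls 1, 2 and 3 and 53.5, 59.9 and 61.3% in treated 1, 2 and 3. The share of Tlr4 was 52.3, 46.2 and 39.7% in the controls and 21.7, 26.3 and 30.8% in the treated tumours.

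**Figure D1:**
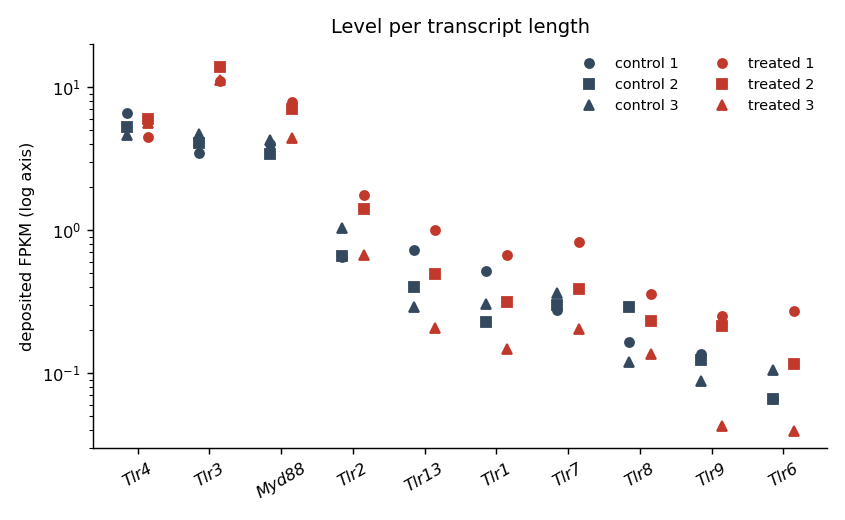
Deposited FPKM (log axis) of the 10 genes in each of the 6 libraries, ordered by the control mean, with marker shape giving the replicate number and colour the group. Tlr3, Tlr4 and Myd88 lie above 3 FPKM in every library and the other 7 genes below 2 FPKM, and the 3 treated values of Tlr3 are the highest in the plot.

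Treated tumours were compared with controls to ask which of these sensors changed in RNA level 12 h into a therapy aimed at another innate sensor, STING. All 10 genes passed the filter on low counts. By edgeR's quasi-likelihood F test over 18049 genes, with Benjamini-Hochberg adjustment, 1 of the 10, Tlr3, rose and none fell at an adjusted p under 0.05, against 1.36% of all genes tested that rose, 0.249% that fell and 1.61% in either direction. At an unadjusted p under 0.05 there were 2, Tlr3 and Myd88, where 16% of all genes passed. The median log2 fold change of the 10 was 0.56, beside -0.003 over all genes tested, and 9 of the 10 were above 0. By library, the median of the 10 against the control mean ran 0.95, 0.27 and -0.31 for treated 1, 2 and 3. The groups did not overlap for Tlr3 and Myd88, as for 23.3% of all genes tested. Treated lay above control in both, as in 12% of all genes tested.

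Tlr3, the endosomal receptor of double-stranded RNA, lies on chromosome 8 from 45395665 to 45411080 (ENSMUSG00000031639). It stood at 64.7, 82.5 and 65.6 CPM in treated 1, 2 and 3 and at 20.4, 23.9 and 27.7 CPM in controls 1, 2 and 3. The lowest treated library was far above the highest control, and treated 3 lay beside treated 1. The gene rose 2.95-fold (log2 fold change 1.56 ± 0.14 SE, 95% interval 1.24 to 1.88, n = 3, edgeR adjusted p = 0.00127). It kept its call without each of the 6 libraries in turn, with log2 fold changes from 1.44 to 1.69 and edgeR adjusted p from 0.00222 to 0.0164. These fits called 0.518% (without control 2) to 1.85% (without treated 3) of all genes, with 0.67% without treated 2, 1.42% without treated 1, and 0.727 and 0.64% without controls 1 and 3. Tlr3 was also called by limma-voom, where 1.46% of all genes were, by limma-voom with sample quality weights (4.39%), and by edgeR with RLE scaling (1.56%), upper quartile scaling (1.65%), no filter (0.613%), a stricter filter (2.8%) and a replicate block (0.759%). Among the 246 genes that rose it was number 92 by log2 fold change, and their median was 1.18. The summed level of 6 endothelial markers, none of them at 0, moved the same way. It was 149.1, 140.8 and 128.8 CPM in treated 1, 2 and 3 and 75.7 to 81.6 CPM in the controls. Of the 6, Pecam1, Cdh5 and Tie1 rose, where 1.36% of all genes did. Egfl7 was not called, though its groups did not overlap (0.41 ± 0.10, edgeR adjusted p = 0.0974). Kdr overlapped between groups (0.28 ± 0.16, edgeR adjusted p = 0.436). Tek was flat (0.004 ± 0.40, edgeR adjusted p = 0.998), and in treated 3 it lay below every control. The endothelial sum was 1.64 to 1.90 times its control mean in the treated libraries, and Tlr3 was 2.69 to 3.44 times its own. The part of endothelial cells in the Tlr3 result was not tested. The antisense transcript Gm45542 shares 381 of the 5207 exon bases of Tlr3 in GENCODE M21 and had 0 to 14 counts per library.

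The 3 named genes with the pattern most like that of Tlr3 over the 6 libraries, out of 11279 whose mean log2 CPM reached 1, were Trim21, Etnk1 and Ifih1. Trim21, a cytosolic antibody receptor and ubiquitin ligase, had a Pearson r of 0.9994 with Tlr3 and changed by 1.84 on the log2 scale (edgeR adjusted p = 0.00216). Etnk1, ethanolamine kinase, had an r of 0.9985 and changed by 0.31 (edgeR adjusted p = 0.0368). Ifih1, the cytosolic sensor of long double-stranded RNA MDA5, had an r of 0.9978 and changed by 2.21 (edgeR adjusted p = 0.00161). These correlations span 2 groups of libraries and describe likeness only. The promoter of Trim21 held 2 overlapping matches of the interferon response element core, GAAACTGAAA and GAAAGTGAAA, and that of Ifih1 held GAAACAGAAA, while no searched motif was found in the Etnk1 window.

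Tlr7, Tlr8 and Tlr9 recognise single-stranded RNA, RNA breakdown products and DNA with unmethylated CpG, and Tlr13 recognises bacterial ribosomal RNA. None passed the threshold. Tlr7, on the X chromosome from 167304929 to 167330558, stood at 3.76, 1.85 and 0.948 CPM in treated 1, 2 and 3 and at 1.28, 1.38 and 1.68 CPM in the controls. Treated 1 was the highest and treated 3 the lowest of its 6 libraries, so the treated group enclosed the controls (log2 fold change of treated over control 0.59 ± 0.47, edgeR adjusted p = 0.6). Tlr13, also on the X chromosome, from 106143204 to 106160493, stood at 4.83, 2.47 and 1.01 CPM in treated and 3.52, 1.96 and 1.42 CPM in control tumours, and here too the treated libraries enclosed the controls (0.27 ± 0.56, edgeR adjusted p = 0.867). Tlr9, on chromosome 9 from 106222598 to 106226883, gave 65, 55 and 11 counts across treated 1 to 3 and 35, 32 and 20 across controls 1 to 3 (0.53 ± 0.64, edgeR adjusted p = 0.752). Tlr8, next to Tlr7 from 167242696 to 167264329, gave 95, 63 and 37 counts across treated 1 to 3 and 43, 76 and 28 across controls 1 to 3, with full overlap (0.35 ± 0.48, edgeR adjusted p = 0.783). The 95% intervals of all 4 included both falls and rises of more than 1.5 on the fold scale except the lower end for Tlr7. Changes of that size were therefore not excluded for Tlr8, Tlr9 and Tlr13, nor was a rise of that size for Tlr7.

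The surface receptors were not called either. Tlr2, which binds lipoproteins and pairs with TLR1 or TLR6, lies on chromosome 3 from 83836272 to 83841767. It stood at 5.97 and 4.88 CPM in treated 1 and 2, above all controls (2.21, 2.24 and 3.53 CPM), and at 2.29 CPM in treated 3, within their range. Its log2 fold change was 0.72 ± 0.37 (edgeR adjusted p = 0.394). Tlr6 gave 75, 33 and 11 counts across treated 1 to 3 and 19, 18 and 26 across controls 1 to 3 (0.83 ± 0.69, edgeR adjusted p = 0.627). Tlr1 had 166, 78 and 37 counts in the treated libraries and 127, 56 and 65 in the controls (0.12 ± 0.56, edgeR adjusted p = 0.949). In both, treated 1 was the highest and treated 3 the lowest of the 6 libraries. Tlr1 and Tlr6 are neighbours on chromosome 5, from 64924679 to 64933561 and from 64952031 to 64960048, and are close paralogs: of all stretches of 50 bases in their GENCODE M21 transcripts, 13.6% of those in Tlr1 and 12.3% of those in Tlr6 occur in the other gene, so the split of reads between them is uncertain.

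Tlr4, the receptor of bacterial lipopolysaccharide, lies on chromosome 4 from 66827584 to 66930284. It stood at 28.1, 38.6 and 35.1 CPM in treated 1, 2 and 3 and at 41.4, 32.9 and 29.0 CPM in the controls. The groups overlapped almost completely, with a log2 fold change of -0.02 ± 0.16 and a 95% interval of -0.39 to 0.34 (edgeR adjusted p = 0.968). It was the member with the narrowest interval after Tlr3, and unlike most receptors it was lowest in treated 1. The FPKM ratio of Tlr3 to Tlr4 was 0.527, 0.773 and 1.02 in controls 1, 2 and 3 and 2.46, 2.28 and 1.99 in treated 1, 2 and 3, a 3.00-fold difference of geometric means. Ratios of Tlr3 to the 9 other genes were compared with a two-sided exact permutation test on the log scale. Those to Tlr2, Tlr4 and Myd88 did not overlap between groups and reached an exact permutation p = 0.1, the smallest that 3 against 3 libraries allow, or 0.225 adjusted over the 9 ratios. The other 6 ratios overlapped between groups, so no ratio passed a threshold of 0.05 and none could have. Tlr3 itself was 2.69 to 3.44 times its control mean in the treated libraries, which raises its ratio to any steady gene. The share of all genes whose ratio to Tlr3 separates the groups was not computed.

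Myd88 lies on chromosome 9 from 119335934 to 119340041 (ENSMUSG00000032508). It stood at 22.7 and 21.03 CPM in treated 1 and 2, at 12.7 CPM in treated 3 and at 11.7, 9.94 and 12.4 CPM in controls 1, 2 and 3. Treated 1 and 2 were 2.00 and 1.85 times the control mean, and treated 3 was 1.118 times that mean and just above the highest control. Its log2 fold change was 0.73 ± 0.22 (95% interval 0.23 to 1.23, n = 3), which missed the threshold over all genes (edgeR adjusted p = 0.165, unadjusted p = 0.00999). Without treated 3 it passed, at 0.95 on the log2 scale and an edgeR adjusted p of 0.0161, where 1.85% of all genes were called. DESeq2 also called it with all 6 libraries (adjusted p = 0.00929), where 6.37% of all genes were called. Over all 14 alternatives its adjusted p ran from 0.00929 to 0.448. Acaa1a, on the opposite strand, shares 290 of the 2576 exon bases of Myd88 in GENCODE M21 and had 3299 to 3919 counts in the treated libraries and 2752 to 3716 in the controls. Whether the counting used strand is not given in the sources used here.

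**Figure D2:**
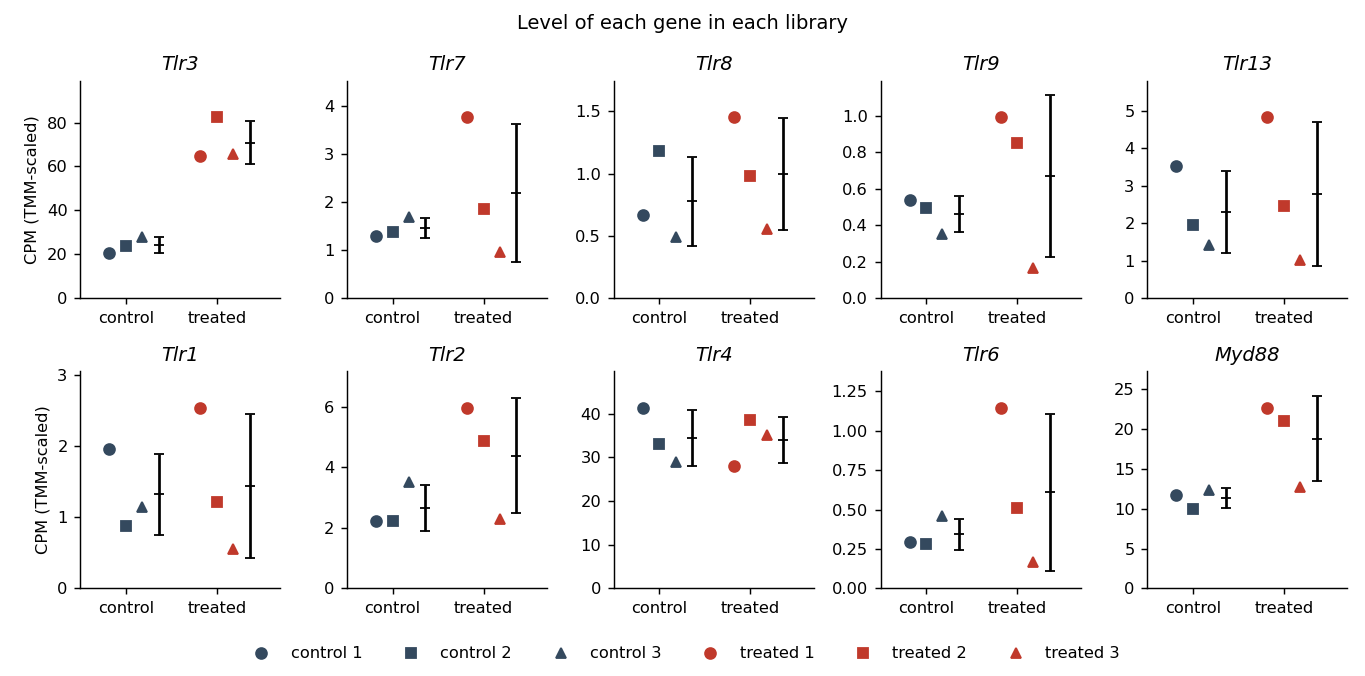
CPM scaled by TMM of each gene in each library, with the group mean and SD over 3 libraries as a bar beside the points; each panel starts at 0 and has its own scale. Treated libraries of Tlr3 (64.7 to 82.5 CPM) lie far above its controls, those of Myd88 lie above its controls with treated 3 close to them, and in the other panels the groups overlap.

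**Figure D3:**
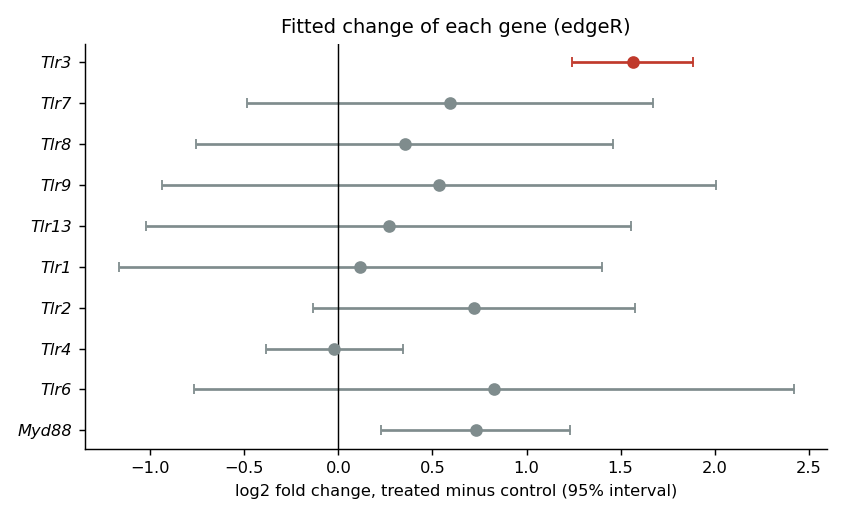
Log2 fold change of treated minus control tumours from the edgeR fit over all genes, with its 95% interval, for the 10 genes; red marks an adjusted p under 0.05. Tlr3 (1.56) is the 1 gene in red, Tlr4 (-0.02) lies at 0 with a narrow interval, and Tlr6 has the widest interval.

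The receptors other than Tlr3 and Tlr4 shared an order among the treated libraries. For 8 of the 10 genes, Myd88 included, treated 1 was the highest, treated 2 intermediate and treated 3 the lowest. In treated 1, 9 genes exceeded their control mean, in treated 2 also 9, and in treated 3, 7 were below it. The coefficient of variation was larger in treated than in control tumours for 7 genes, for example 81.8% against 28.6% for Tlr6 and 65.7% against 14.4% for Tlr7. Over the 6 libraries the log2 CPM of Tlr6 and Tlr7 had a Pearson r of 0.990 and those of Tlr1 and Tlr13 of 0.938, while Tlr4 had -0.581 with Tlr7 and -0.456 with Tlr2. These are descriptions over the same 6 libraries, some resting on few counts. The shares of all genes with this treated order, or with a larger coefficient of variation in treated tumours, were not computed. The order was not confined to these genes. The endothelial marker sum had it, at 1.90, 1.79 and 1.64 times its control mean in treated 1, 2 and 3. The pigment cell sum, at 0.977, 1.04 and 1.06 times, did not.

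Most leukocyte marker lists had the same order in the treated libraries. The 12 macrophage markers, none of them at 0, summed to 1.38, 0.818 and 0.396 times the control mean in treated 1, 2 and 3. Of the 12, 0 passed the edgeR threshold over all genes (1.61% of all genes did) and 4 had a log2 fold change above 0. At an unadjusted p under 0.05 there were 2 (16% of all genes), Ly6c2 and Fcgr1, with log2 fold changes of 1.99 and 1.33. The 8 neutrophil markers summed to 56.4, 17.8 and 5.75 CPM in treated 1, 2 and 3 and to 3.35 to 5.70 CPM in the controls. Of the treated sums, S100a9 made up 26.3, 6.94 and 1.60 CPM and S100a8 12.7, 3.14 and 1.32 CPM. Cxcr2, at 2.20, 2.27 and 0.060 CPM in treated 1, 2 and 3, did not have the order. None of the 7 neutrophil markers tested was called, and 4 had an unadjusted p under 0.05 (16% of all genes did). Ly6g, the marker that defines the lineage, was at 0 in 4 libraries and at most 0.140 CPM in the others. The 6 markers of plasmacytoid dendritic cells, in which Tlr7 and Tlr9 are abundant, summed to 8.70, 5.87 and 3.07 CPM in the treated libraries and 4.12 to 4.41 CPM in the controls. Of these sums, Ly6d made up 3.98, 0.42 and 0 CPM in treated 1, 2 and 3 and at most 0.175 CPM in the controls. Pacsin1, at 3.58, 4.44 and 2.30 CPM in treated 1, 2 and 3, did not have the order. Only 3 of the 6 passed the filter, and their defining marker Siglech was at 0 in all but control 1. The 7 T cell markers summed to 5.80, 3.59 and 1.78 CPM in treated 1, 2 and 3, all below the controls at 6.54 to 7.59 CPM. None of the 7 was called, and 2 had an unadjusted p under 0.05 (16% of all genes did). B cell markers, without this order, summed to 1.49 to 1.78 CPM in treated and 1.54 to 1.82 CPM in control libraries. The part of these cells in the receptor levels was not tested.

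Set against the summed counts of the 12 macrophage markers, 4 of the 10 genes had all treated libraries above all controls, as had 5.21% of all genes tested on this scale, with 0.748% the other way. The divisor itself was 0.818 and 0.396 times the control mean in treated 2 and 3, which raises the ratio of any gene there. Tlr3 had 240.8, 517.1 and 848.7 counts per 1000 macrophage marker counts across treated 1 to 3, against 93.9, 115.1 and 173.2 across controls 1 to 3. Myd88 had 84.5, 131.8 and 163.9 in treated and 53.7, 47.9 and 77.3 in control tumours. Tlr2 had 22.2 to 30.6 against 10.2 to 22.01, and Tlr7 had 11.6 to 14.0 against 5.89 to 10.51. On this scale the spread of Tlr7 among treated libraries was narrow, whereas those of Tlr3 and Tlr4, which held their CPM in treated 3, were wide. Tlr4 ranged from 104.5 to 454.4 in treated and from 158.7 to 190.0 in control tumours. These ratios are descriptions with no test.

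**Figure D4:**
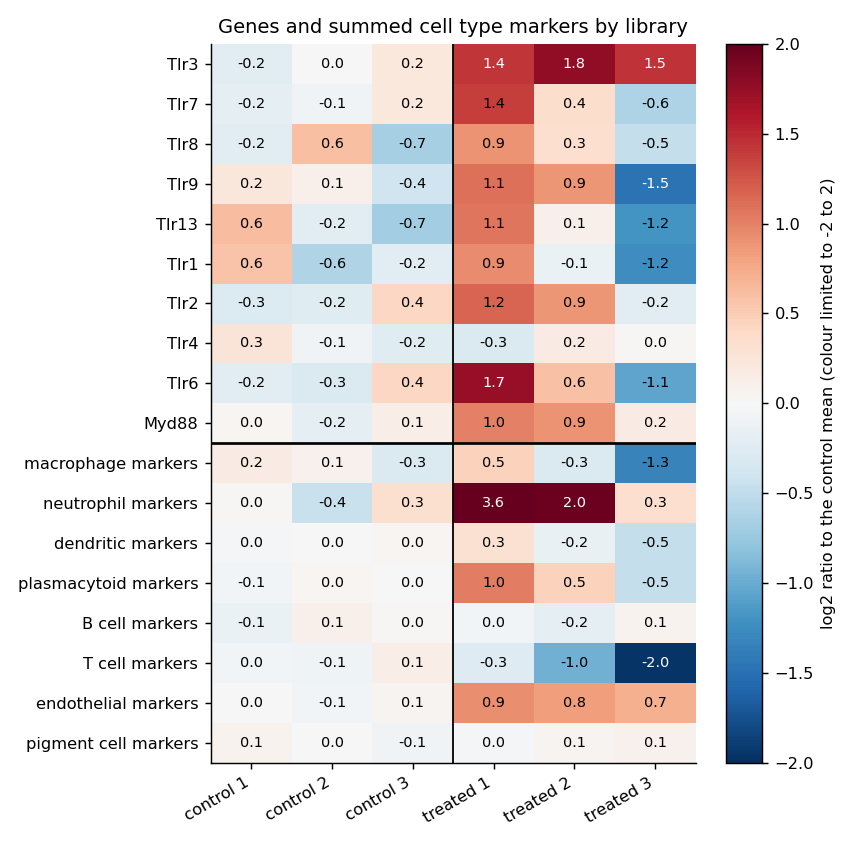
Log2 ratio of each library to the control mean, for the CPM of the 10 genes (top) and for the summed CPM of 8 marker lists (bottom); the number in each cell is the ratio on the log2 scale. Tlr3, Myd88 and the endothelial and neutrophil markers are above the control mean in all 3 treated libraries. Most other receptors and the macrophage markers are above it in treated 1 and below it in treated 3.

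The other genes of the pathway were taken from lists made by function. Of the 3 other Toll-like receptor genes in the table, Tlr5 and Tlr12 were tested and neither was called by edgeR or DESeq2 or had an unadjusted p under 0.05. Tlr11 had 0 to 11 counts per library and was below the filter. Of 25 further adaptors, kinases and transcription factors, 1 rose (1.36% of all genes did) and none fell, and their median log2 fold change was 0.09. DESeq2 called 4 of the 25, Irf7, Rela, Irak4 and Irak2, where it called 6.37% of all genes, and limma-voom with sample quality weights called the same 4 genes (4.39% of all). Without treated 3, edgeR called Irf7 and Irf5 (1.85% of all), the latter a factor that MyD88 also activates. At an unadjusted p under 0.05 there were 7, against 16% of all genes. The gene that rose in edgeR with all libraries was Irf7, a factor that MyD88 activates downstream of TLR7 and TLR9 and that is also strongly induced by interferon, at 67.9 to 134.0 CPM in treated and 7.15 to 8.63 CPM in control tumours (log2 fold change 3.63 ± 0.25, edgeR adjusted p = 0.00036). Rela, the p65 subunit of NF-kB, stood at 55.4 to 57.2 against 46.6 to 47.1 CPM (0.27 ± 0.06, edgeR adjusted p = 0.0749), and Irak4, the kinase that MyD88 recruits first, at 17.8 to 22.3 against 13.9 to 14.5 CPM (0.50 ± 0.11, 0.0861). Both missed the edgeR threshold, and neither overlapped between groups. With DESeq2 the adjusted p was 0.0346 for Rela and 0.00851 for Irak4. Tab2, the most abundant gene of this list, had -0.05 ± 0.08 (edgeR adjusted p = 0.802). Ticam1, the adaptor of TLR3, named after its value was seen, stood at 18.5 to 29.6 CPM in treated and 19.1 to 23.3 CPM in control tumours (0.14 ± 0.17, edgeR adjusted p = 0.753).

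Of 21 co-receptors, chaperones and genes of trafficking and ligand processing, none was called by edgeR, 3 had an unadjusted p under 0.05 (16% of all genes did), DESeq2 called 1 (6.37% of all) and limma-voom none (1.46% of all). Their median log2 fold change was 0.01. Hsp90b1, the endoplasmic reticulum chaperone gp96 that folds most Toll-like receptors and the most abundant gene of the list, stood at 1475 to 1534 CPM in treated and 1726 to 1770 CPM in control tumours (-0.22 ± 0.04, edgeR adjusted p = 0.0618). It was the gene that DESeq2 called (adjusted p = 0.0135), and it also passed in limma-voom with sample quality weights (0.0174) and in edgeR with upper quartile scaling (0.0417) or the stricter filter (0.0397). Lrrc59, a membrane protein linked to the trafficking of nucleic acid receptors, had -0.16 ± 0.06 (edgeR adjusted p = 0.233), and Slc15a4, an endolysosomal transporter needed for TLR7 and TLR9 signalling, 0.21 ± 0.08 (0.278).

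Of 15 inhibitors of the pathway, none was called by edgeR, 4 had an unadjusted p under 0.05 (16% of all genes did), DESeq2 called 1 of the 14 it tested (6.37% of all) and limma-voom none (1.46% of all). The median was 0.26 and 12 of the 15 were above 0. Irak3, a kinase relative that restrains MyD88 signalling in macrophages, stood at 3.96, 2.78 and 2.14 CPM in treated 1, 2 and 3 and at 1.44 to 1.53 CPM in the controls, with no overlap (1.00 ± 0.28, edgeR adjusted p = 0.141). Nfkbia, the NF-kB inhibitor IkB-alpha, stood at 31.4, 26.3 and 15.0 CPM against 12.7 to 15.3 CPM (0.81 ± 0.25, edgeR adjusted p = 0.172). It passed with DESeq2 (adjusted p = 0.00459) and in edgeR without treated 3 (0.00915). Il1rl1, the receptor of interleukin-33, had 2.70 ± 0.97 (edgeR adjusted p = 0.231), and Tnip1, a partner of the deubiquitinase A20, 0.26 ± 0.10 (0.24).

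Of 20 genes known to be induced by Toll-like receptor ligands in myeloid cells, 18 were tested and none was called by edgeR, although their median was 1.29 on the log2 scale. At an unadjusted p under 0.05 there were 7 (16% of all genes), DESeq2 called 3 of the 17 it tested (6.37% of all) and limma-voom none (1.46% of all). By library, the median against the control mean ran 1.58, 0.91 and -0.40 for treated 1, 2 and 3. Acod1, the enzyme that makes itaconate, stood at 20.1 and 17.1 CPM in treated 1 and 2, at 1.96 CPM in treated 3 and at 1.53 to 1.88 CPM in the controls (2.95 ± 0.72, edgeR adjusted p = 0.105). Ptgs2, cyclooxygenase-2, stood at 15.0, 14.0 and 4.47 CPM against 4.27 to 5.13 CPM (1.26 ± 0.40, edgeR adjusted p = 0.188), and Ccl4, a chemokine, at 12.8, 10.7 and 1.32 CPM against 1.67 to 2.16 CPM (2.13 ± 0.68, 0.189). In these 3 genes treated 1 and 2 were far above the controls and treated 3 lay near or within their range. Saa3, an acute-phase protein and the most abundant of the list, overlapped between groups (0.83 ± 0.57, edgeR adjusted p = 0.532). Without treated 3, edgeR called 6 genes of the list (1.85% of all genes), Acod1, Ptgs2 and Ccl4 among them (adjusted p = 0.000183, 0.00222 and 0.000785). The neutrophil and macrophage marker sums given above had the same order in the treated libraries, and their part in these values was not tested.

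**Figure D5:**
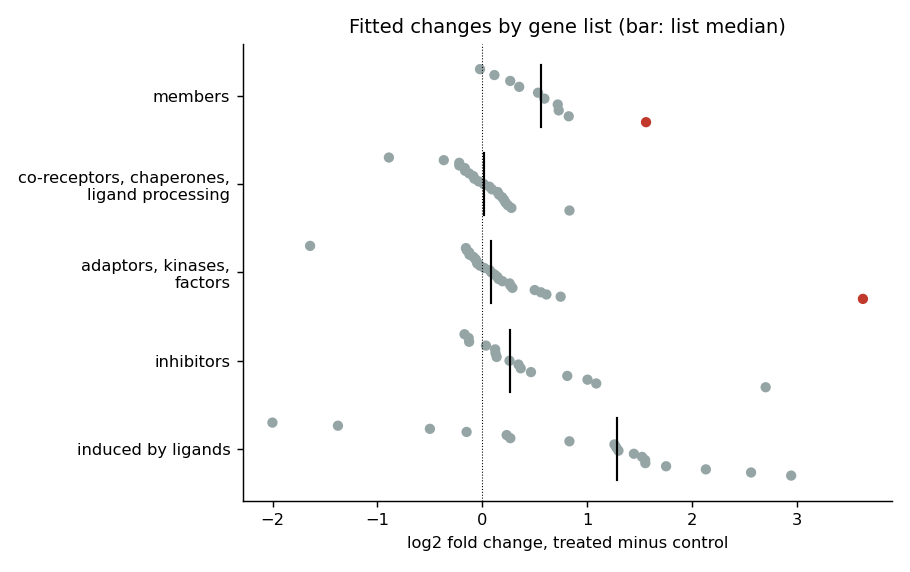
Log2 fold change of treated minus control tumours for each tested gene of 5 lists, with the list median as a black bar; red marks an edgeR adjusted p under 0.05. Tlr3 and Irf7 are the genes in red, and the list of genes induced by ligands has the highest median (1.29) with no gene past the threshold.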

How the data were processed

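The members and gene lists were chosen with earlier results of these data known. Per the file headers, the authors deposited raw counts beside FPKM values for every gene in each library. Fastp, StringTie and edgeR are named in the submitters' processing notes, whereas aligner, genome build, annotation and strand setting are not given in the sources used. GENCODE M21 (GRCm38) holds 99.7% of the table's identifiers, and 7 of the 10 members have the same span there. Counts were tested in R 4.3.3 with edgeR 4.0.16 (filterByExpr, minimum count 10 and minimum total 15, TMM, glmQLFit and glmQLFTest on group, all 6 libraries), which left 18049 genes. P-values were two-sided and Benjamini-Hochberg adjusted over all genes, with a threshold of 0.05. The SE is the log2 fold change divided by the square root of F, and 95% intervals use the fit's total degrees of freedom. The fit was tested on simulated data. CPM values are scaled by TMM, and errors are SD over 3 libraries. Principal components and correlations used log2 CPM with a prior count of 2. Medians of a list in 1 library used CPM plus 0.5. Alternatives were DESeq2 1.42.0, limma-voom (limma 3.58.1) with and without sample quality weights, other scalings and filters, a replicate block and each library left out. Exact permutation tests used scipy 1.17.1. Named genes are all members, the 3 of smallest p and the most abundant by FPKM of each pathway list, every called list gene, and the 3 genes most correlated with each called member and with the most abundant one. The symbol Tasl of the trafficking list did not match the table. Protein sequences were not used here, and 1 planned promoter motif is not reported here.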

Additional observations from a re-analysis of the deposited data

How the results depend on the processing

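Tlr3 rose in the main analysis and in all 14 alternatives, with log2 fold changes from 1.44 to 1.69. Of 136 member values under alternatives, 121 kept direction and side of the threshold, 2 (Myd88, given above) passed newly and 13 changed sign, all of genes that were not called. The number of members called was 2 with DESeq2 and 1 to 2 with each library left out. Signs changed for Tlr1 with limma-voom (-0.070) and the replicate block (-0.039), and with sample quality weights for Tlr4 (0.061), Tlr8 (-0.14) and Tlr13 (-0.010). With each library left out, log2 fold changes ran from -0.58 to 0.52 for Tlr1, -0.12 to 0.14 for Tlr4, -0.014 to 1.27 for Tlr6, -0.050 to 0.95 for Tlr7, -0.021 to 0.78 for Tlr8, -0.40 to 0.72 for Tlr13 and -0.11 to 0.018 for Tab2. The low ends of Tlr1, Tlr6, Tlr7, Tlr8 and Tlr13 are those without treated 1. Of the genes of the pathway lists, DESeq2 called 9, limma-voom with weights 5, upper quartile scaling and the stricter filter 2 each, and edgeR 1 to 9 with each library left out, 9 without treated 3. Over all genes, 291 were called, against 998 with DESeq2, 792 with weights, 174 with no filter and 97 to 347 with each library left out (126 without treated 2, 136, 97 and 120 without controls 1, 2 and 3). The replicate block called 137 genes, Tlr3 among them. Deviations of same-numbered libraries correlated at 0.09, -0.16 and -0.11, and not every library correlated best with its own number. With 3 libraries per group, these values cannot decide whether the numbers pair the samples. By mean CPM in place of FPKM, Tlr4 stood above Myd88 in treated tumours and Tlr7 above Tlr1 in controls. With the stricter filter 6 members were tested. Tlr6, Tlr8 and Tlr9 had under 100 counts in every library, which limits their precision. The causes of these differences were not tested.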
